A study of Mus musculus with 2 samples.

Results

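This report covers the Notch receptors Notch1, Notch2, Notch3 and Notch4 and the ligands Dll1, Dll3, Dll4, Jag1 and Jag2. They were compared between endothelial cells with floxed Snail1 alleles that received an adenovirus carrying either Cre or β-galactosidase. These 9 genes were chosen by name as a family, and their probe sets were selected by an exact match of the annotated gene symbol. They made up 18 of the 34945 probe sets with a single gene symbol, and 9 of 18193 genes. Expression was measured on Affymetrix arrays in primary cultures of endothelium, the lining of blood vessels, from C57/BL6 mouse embryos of stage E10.5 that were homozygous for a floxed Snail1 allele (Snail1f/f). The WT cells received an adenovirus carrying β-galactosidase and the Snail1 KO cells an adenovirus carrying Cre. Everything else named in the labels was common to both groups, including the floxed alleles, an adenoviral infection, medium with 20% serum and endothelial growth factors, and a recovery of several days. Each group is 1 array, and the labels do not say how many embryos contributed to it. Loss of Snail1, the change of viral insert and an effect of Cre itself cannot be told apart in this design. No difference below was tested, and each is described by its size and by the agreement of the probe sets.

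Notch proteins are receptors that are cut when bound by a ligand on a neighbouring cell. A surface protease and then γ-secretase release the intracellular part, which enters the nucleus, joins the DNA-binding protein RBPJ and a Mastermind protein, and switches on genes of the Hes and Hey families. In growing vessels Dll4 on a leading tip cell activates Notch in the cells behind it and restrains sprouting, and Notch signalling also sets arterial identity. Snail1, encoded by Snai1, is a zinc finger repressor that binds E-boxes.

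The values are log2 expression per probe set, so a difference of 1 is a 2-fold difference, and every difference is that of Snail1 KO minus WT. Where a gene had several probe sets, the set with the highest mean over both arrays stood for it, and the gene was counted among the 12874 analysed genes if that mean was above a log2 level of 3.97, the 40th percentile of all probe sets except array controls. The arrays had median values of 4.66 and 4.70. Snai1 itself read 5.33 (WT) and 3.59 (Snail1 KO), and 4 control probe sets for Cre were at 2.69 to 3.83 in WT and at 11.87 to 12.86 in Snail1 KO. These Cre sets belong to the array controls, and whether their signal came from the virus was not tested. The labels do not give the floxed exons, so it is unknown if the Snai1 probes lie in the deleted part. All 8 genes of the endothelial marker list were above the level, among them Cdh5, which encodes VE-cadherin, at 11.34 and 11.46. Passing the level does not by itself separate cell types. On at least 1 array, 7 of 8 pericyte and smooth muscle genes, 3 of 4 epithelial genes and 1 of 3 erythroid genes passed too. A robust SD of the difference over the analysed genes, 0.32, serves as a yardstick for size and does not replace replicate cultures.

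Of the 9 family members, 8 passed the level filter and Dll3 did not. Dll4 was the only member at least 2-fold higher in Snail1 KO, and Notch4 the only member at least 2-fold lower, each in its probe set with the highest mean. The other 6 analysed members lay within 2-fold. In the background, 0.971% of the analysed genes reached 2-fold upward and 1.84% reached it downward. At any size, 5 of the 8 were higher and 3 lower, where 48.9% of all analysed genes were higher and 50.9% lower. The median difference of the 8 members was 0.20, beside -0.01 over all analysed genes. It was 0.051 with no level filter, 0.35 with the filter at the 60th percentile and 0.33 with the mean of all probe sets. Ligands and receptors differed in their medians, at 0.37 over 4 analysed ligands and -0.13 over 4 receptors.

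**Figure D1:**
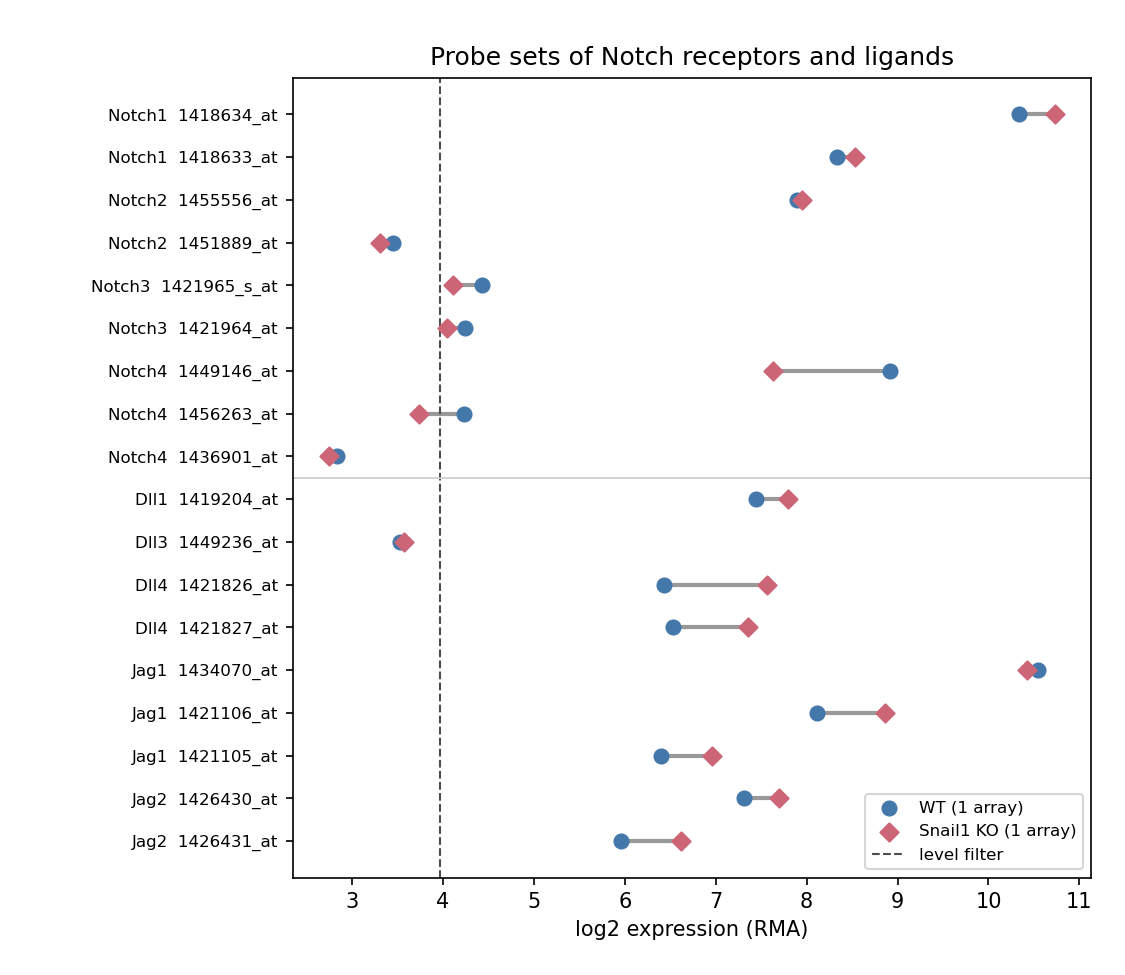
Log2 expression of the 18 probe sets of the family, with receptors above the grey line and ligands below it, and within a gene the probe set with the highest mean first. Circles are the WT array and diamonds the Snail1 KO array, 1 array each with no error bar; the dashed line is the level of 3.97. The longest bars are the first Notch4 set, from 8.91 down to 7.63, and the first Dll4 set, from 6.43 up to 7.56.

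Among the receptors, Notch4 had the largest difference. Notch4 is a receptor found mainly in endothelium. Its probe set with the highest mean (1449146_at), annotated to a RefSeq mRNA, read 8.91 (WT) and 7.63 (Snail1 KO), which is 2.44-fold lower. A further set (1456263_at) was at 4.24 and 3.74, just above the level in WT and below it in Snail1 KO. The remaining set (1436901_at) was at 2.83 and 2.74, below the level on both arrays. All 3 Notch4 probe sets were thus lower in Snail1 KO, with differences of -1.29, -0.49 and -0.09, and the smaller differences came from sets near or below the level. Of the 12874 analysed genes, 145 had a lower difference than Notch4. The mean of its 3 sets differed by -0.62, so Notch4 is not past 2-fold in that summary.

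Notch1, the receptor through which Dll4 acts on sprouting vessels, was slightly higher in Snail1 KO. Its probe sets were at 10.33 and 10.73 (1418634_at) and at 8.34 and 8.54 (1418633_at), for WT and Snail1 KO in that order. The differences were 0.40 and 0.20, and 24.1% of analysed genes differed by at least as much as the larger of them in either direction. Notch2, a receptor expressed in many tissues, was at 7.89 and 7.94 in the probe set above the level (1455556_at). Its other set (1451889_at) was at 3.45 and 3.31, below the level on both arrays. The Notch2 differences of 0.05 and -0.14 were both small beside the yardstick of 0.32. Notch3, best known as the receptor of smooth muscle cells and pericytes, read 4.43 (WT) and 4.11 (Snail1 KO) in 1421965_s_at, then 4.24 and 4.05 in 1421964_at. Both sets were lower, with differences of -0.32 and -0.20, from values only just above the level. The suffix of the first Notch3 set marks a design that can bind several transcripts.

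Of the ligands, Dll4 had the largest difference. It encodes the Delta ligand of arterial and tip endothelial cells. Its probe sets were at 6.43 and 7.56 (1421826_at) and at 6.53 and 7.36 (1421827_at), for WT and Snail1 KO in that order. Both were higher in Snail1 KO, by 2.19-fold and 1.78-fold, and both lay above the level on each array. Among the analysed genes 77 had a higher difference than Dll4. The 2 sets were nearly equal in mean over both arrays, at 6.99 and 6.94, and 1421827_at was the brighter in WT. Which set stood for Dll4 therefore decided whether it counted as past 2-fold. The mean of the 2 sets differed by 0.98, just under 2-fold. Dll1, another Delta ligand that activates Notch, had a single probe set (1419204_at), which read 7.44 (WT) and 7.79 (Snail1 KO), a difference of 0.35 that 29.1% of analysed genes matched or exceeded in size. Dll3, a divergent Delta protein that inhibits Notch within the cell that makes it and is known from the segmentation of the embryo, was at 3.53 and 3.57 (1449236_at), below the level on both arrays.

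The Jagged ligands differed less clearly. Jag1, which in the mouse retina opposes the effect of Dll4 on sprouting, gave probe sets of both signs. Its set with the highest mean (1434070_at) read 10.54 (WT) and 10.42 (Snail1 KO), a difference of -0.12. The other sets were at 8.11 and 8.86 (1421106_at) and at 6.40 and 6.96 (1421105_at), 1.68-fold and 1.47-fold higher in Snail1 KO. Both of these lie well above the level, and the mean of the 3 sets differed by 0.40, so the sign for Jag1 depends on the probe set. The spread between its sets was 0.87, and 8.21% of the 6053 genes with at least 2 probe sets above the level had a spread as large. Jag2, a Jagged ligand also made by endothelium, was at 7.31 and 7.69 (1426430_at) and at 5.96 and 6.61 (1426431_at). Its sets were 1.30-fold and 1.57-fold higher in Snail1 KO.

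**Figure D2:**
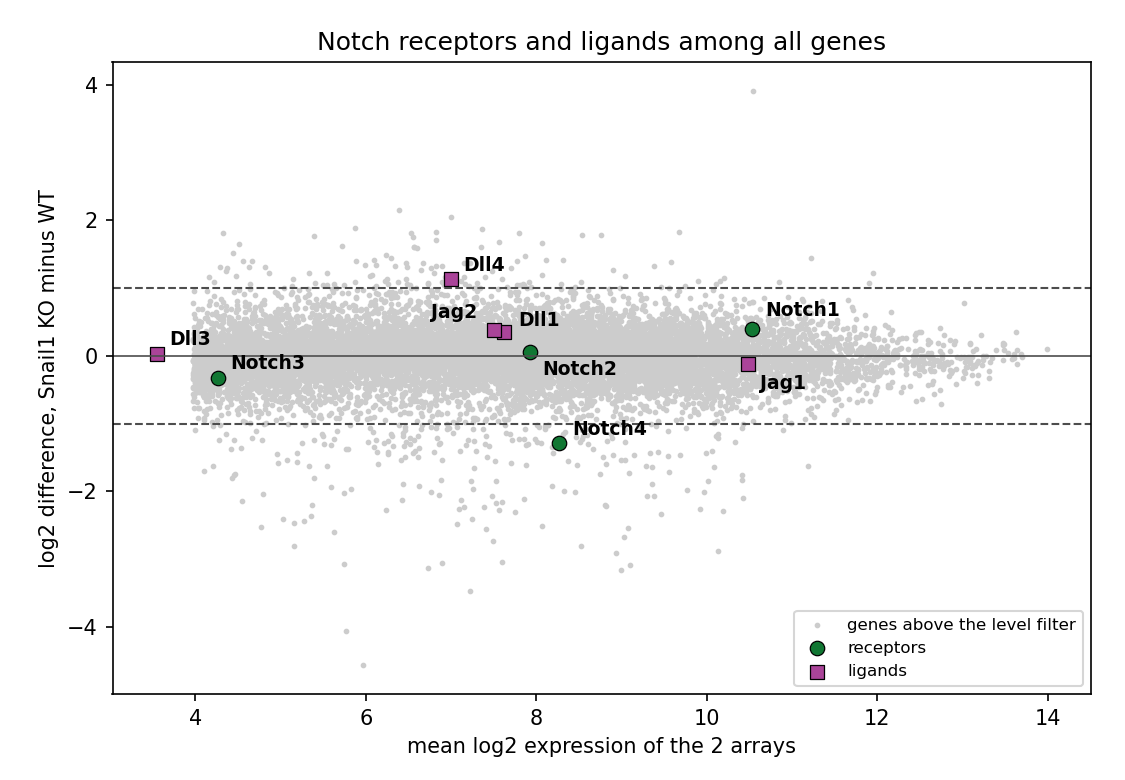
Difference between the arrays against mean log2 expression, with a point per analysed gene in grey, receptors as green circles and ligands as purple squares, at the set with the highest mean. Dashed lines mark 2-fold. Dll4, at 1.13, and Notch4, at -1.29, lie outside them, and the other 7 members, including Dll3 left of the level filter, lie inside.

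Counted over probe sets, the ligands were mostly higher and the receptors mixed. Of the 9 ligand sets, 8 were higher in Snail1 KO and 1 lower, and of the 9 receptor sets 3 were higher and 6 lower. Restricted to the 15 family sets above the level, 7 of 8 ligand sets and 3 of 7 receptor sets were higher, where 52.5% of all such single-gene sets on the array were higher and 47.2% lower. At least 2-fold differences were seen in 1 of these 15 sets upward and in 1 downward, beside 1.57% and 1.52% of all such sets. Probe sets of a gene share their RNA and are not replicates. Of the 6 members with at least 2 sets above the level, 3 (Notch1, Dll4 and Jag2) were higher in all of them, 2 (Notch3 and Notch4) were lower in all, and Jag1 was mixed. Over the array, 56.0% of such genes had the same sign in all their sets. The differences of Dll4 and Notch4 lay 2.42 log2 units apart, and those of Dll4 and Jag1 lay 1.25 apart, which became 1.61 and 0.59 with the mean of all their probe sets.

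The sequence before the transcription start is shown for Dll4 and Notch4, because these members passed 2-fold in opposite directions, and Snail1 is known to bind E-boxes. The sequences are from RefSeq, build GRCm38.p6, and cover 250 bases before the start, 5′ to 3′ on the strand of the gene; capitals mark any E-box, CANNTG.
Dll4, plus strand, chr2:119325534-119325783: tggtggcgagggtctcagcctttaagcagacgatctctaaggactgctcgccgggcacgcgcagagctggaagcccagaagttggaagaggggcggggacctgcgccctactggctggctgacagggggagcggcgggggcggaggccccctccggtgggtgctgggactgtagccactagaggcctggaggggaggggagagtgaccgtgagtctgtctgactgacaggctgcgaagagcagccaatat
Notch4, plus strand, chr17:34564045-34564294: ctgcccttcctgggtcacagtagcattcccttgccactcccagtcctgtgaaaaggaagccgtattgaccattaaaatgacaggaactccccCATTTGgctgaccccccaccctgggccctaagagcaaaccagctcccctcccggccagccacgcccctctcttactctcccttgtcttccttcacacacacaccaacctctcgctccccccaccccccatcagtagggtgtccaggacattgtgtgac
The Dll4 window held no E-box of any kind, and the Notch4 window held 1, of the form CATTTG.

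The E-box form that Snail1 prefers, CAGGTG, which reads as CACCTG on the other strand, was searched in the same windows of all 9 members, which have 10 promoters in the table because Dll1 has 2. It was present in 2 of the 10, beside 17.2% of all 32851 promoters. The windows around it are shown because these members, unlike Dll4 and Notch4, hold the Snail-type form, with the E-box in capitals.
Dll1, minus strand, starting 155 bases before the start: ttgtgcagagagCAGGTGctgtctgcatta
Dll3, minus strand, starting 228 bases before the start: tagagaggaatgCACCTGtatttccgttct
Here the stated distance is that of the first capital letter. The Dll1 window is from the promoter at chr17:15376933-15377182, and the other Dll1 promoter did not hold the Snail-type form. Dll1 differed by 0.35, and Dll3 was below the level, so a difference in Dll3 could not be read. A link between these E-boxes and expression was not tested. Any E-box, CANNTG, which includes the Snail-type form, was in 5 of the 10 promoters and in 66.2% of all. The RBPJ-type element TGGGAA, which reads as TTCCCA on the other strand, was in 0 of the 10 and in 21.6% of all. A match of letters is not a binding site, and these windows leave out enhancers and everything farther from the start.

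Other genes of the pathway were read from a list of 52, of which 48 had a probe set with a single symbol and 44 passed the level filter. Only 1 of the 44 reached 2-fold upward and 0 reached it downward, beside the background of 0.971% and 1.84%. Their median difference was 0.05, with 24 higher and 20 lower. The gene past 2-fold was Dtx1, which encodes a Deltex ubiquitin ligase that acts on Notch receptors. It read 7.13 (WT) and 8.60 (Snail1 KO), a 2.77-fold difference. This probe set can bind several transcripts, but its suffix, _a_at, is not the _s_at of the first Notch3 set. Whether it binds transcripts of other genes was not tested. The other Dtx1 set was at 2.96 and 2.93, below the level. Dtx3l, a Deltex relative known from interferon and DNA damage responses, was lower at 8.44 and 7.80, and its other set at 8.34 and 7.59 was lower too.

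The nuclear complex differed little. In the set with the highest mean, Rbpj was at 8.11 and 8.09 and the coactivator Snw1 at 9.46 and 9.24. All 4 analysed genes had small negative differences in that set, but Rbpj, Maml1 and Snw1 each had this sign in only 2 of 3 sets. Of the 8 analysed genes for receptor cleavage, 4 were higher and 4 lower, and the largest differences were those of the γ-secretase subunits Aph1a, at 0.35, and Aph1b, at -0.22. The 4 corepressor genes ranged from -0.10 to 0.33, with Spen, a corepressor of RBPJ, at 0.33 and Ctbp1 at 0.14. Among 5 glycosyltransferases that modify Notch, Lfng, the Fringe enzyme that favours Delta over Jagged signalling, was at 6.33 and 6.84, a difference of 0.51, and Pofut1, which adds O-fucose, differed by 0.30. The other Lfng set, close to the level, differed by 0.05, and the dimmest Pofut1 set by -0.25.

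Genes on the ligand side had a median of 0.21 over 6 members, with 4 higher. Epn2, an epsin needed for ligand endocytosis, was at 7.42 and 8.09, a difference of 0.68, and 3 of its 4 sets above the level were higher. Neurl1b, a ubiquitin ligase for Notch ligands, was at 5.83 and 6.30. Dner, a non-classical Notch ligand known from neurons, was 1.82-fold higher, at 5.45 and 6.31, with its other set higher by 0.61. Dlk2, a Delta-like protein without the binding module of classical ligands, differed by -0.17 and, in its other set, by 0.07.

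The readout genes gave no common direction. Of 7 targets listed, 5 were analysed, with 3 higher and 2 lower and none past 2-fold. Hes1 and Nrarp were higher, with differences of 0.24 and 0.14. Hes5 was lower, at 4.29 (WT) and 4.05 (Snail1 KO), close to the level. Hey1, a transcriptional repressor switched on by Notch, was at 7.46 and 8.12, 1.57-fold higher in its single probe set. Efnb2, the arterial ephrin, was at 9.45 and 8.91, a difference of -0.53, but its 4 sets ranged from -0.53 to 0.99. Hey2 and Heyl were below the level, so a difference in them could not be read.

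**Figure D3:**
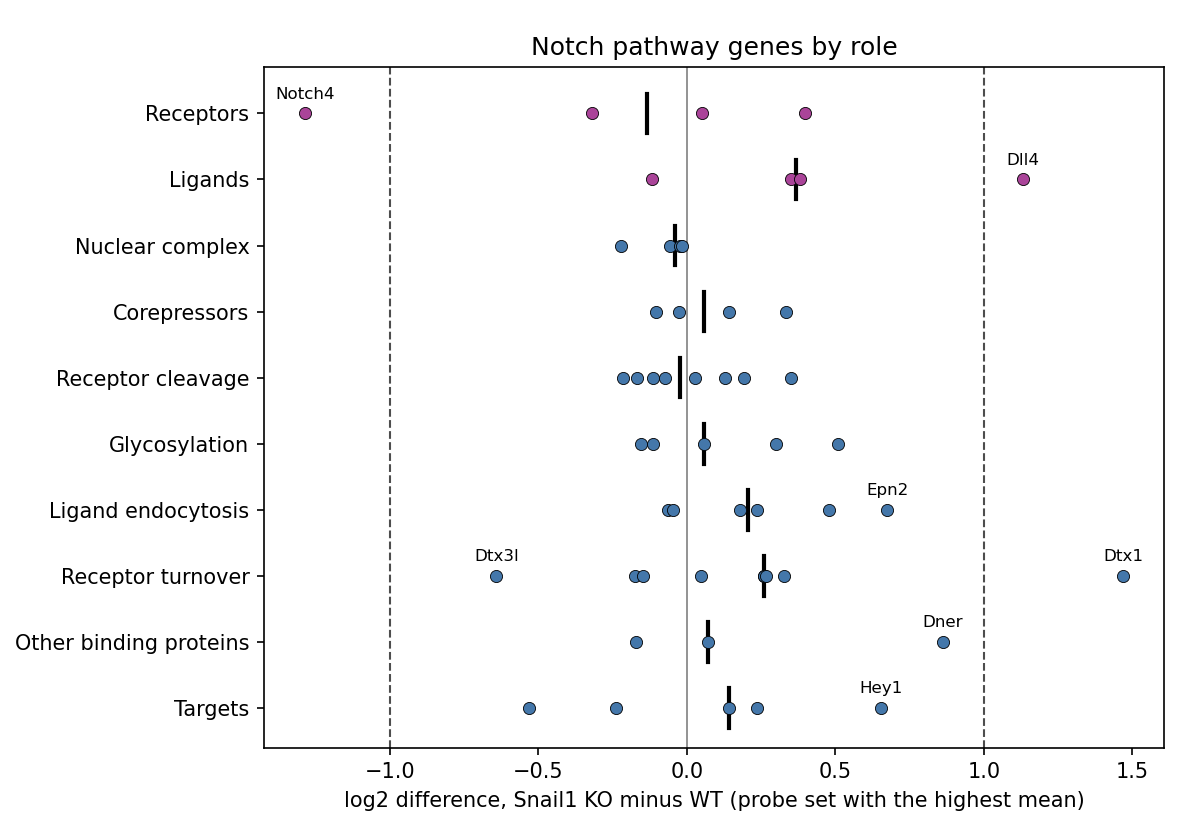
Log2 difference of each analysed gene, by role in the pathway, with the family members in purple, other pathway genes in blue and a black bar at each median. Dashed lines mark 2-fold. Notch4, Dll4 and Dtx1 lie outside them, and the nuclear complex spans only -0.22 to -0.02.

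Some genes listed as markers of other cells also differed between the arrays. The pericyte and smooth muscle list, 8 genes of which 7 were above the level on at least 1 array, had a summed signal on the linear scale of 3431 in WT and 910 in Snail1 KO. This sum is made up mainly of Tagln, an actin-binding protein, at 10.35 and 7.80, and Acta2, smooth muscle actin, at 10.94 and 9.09. Without Acta2 the list summed to 1469 and 365. Its pericyte markers differed less: Rgs5 was below the level on both arrays, Pdgfrb was at 4.45 and 4.05, Cspg4 at 5.03 and 5.14, and Des, an intermediate filament of muscle cells and pericytes, at 5.71 and 5.72. Notch4 and Notch3 were lower on the same array as the contractile genes, but so were 50.9% of all analysed genes. With 1 array in each group, this shared direction cannot show a link. Which cells expressed the contractile genes is unknown, and a part of other cells in either result was not tested. The summed endothelial signal was 21194 in WT and 23063 in Snail1 KO, but without Cldn5, a tight junction protein that read 11.36 and 12.44, it was 18569 and 17516. Among the other endothelial genes Tek was at 9.18 and 9.80, and Emcn at 13.36 and 12.96. Summed fibroblast signal was 927 and 937, made up mostly of Dcn, and without Dcn it was 228 and 152. The collagen gene Col3a1 was at 7.33 and 6.33. Leukocyte signal was 319 and 225, and without Coro1a, a coronin, 208 and 196, with Ptprc and Tyrobp below the level on both arrays. Epithelial signal was 133 and 85.3 with Cdh1 below the level, and without the keratin Krt18 it was 61.4 and 56.2. Neural signal was 333 and 219 with Sox2 below the level, and without Nes it was 60.3 and 54.8. Erythroid signal was 42.7 and 32.1 with Hbb-bh1 and Alas2 below the level. In such bulk RNA, fewer cells of a type and less RNA per cell cannot be told apart.

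The genes most like Dll4 and Notch4 were found by the distance between their pairs of log2 values over the 2 arrays, which is a description of levels and carries no statement on shared control. Nearest to Dll4 were Slc16a12, a monocarboxylate transporter, at 6.47 and 7.63, and the ADAMTS-like matrix genes Adamtsl4, at 6.35 and 7.51, and Adamtsl1, at 6.39 and 7.45. Nearest to Notch4 were Irgm2, an interferon-inducible GTPase, at 8.89 and 7.74, Fez1, a kinesin adaptor, at 8.85 and 7.51, and Mecom, a zinc finger transcription factor, at 8.91 and 7.49.

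The directions of the members were compared under 5 other ways of processing. Dll4 stayed between 0.98 and 1.13 and Notch4 between -1.32 and -0.62. Under the 3 other scalings alone, Dll4 was 1.06 to 1.09 and Notch4 was -1.32 to -1.30, both past 2-fold. Jag1 was negative under these scalings, from -0.16 to -0.07, and positive, at 0.40, only with the mean of all its probe sets. Notch2 and Dll3 each had values of both signs, all within 0.07 of zero. Notch1, Dll1 and Jag2 were higher and Notch3 was lower under all 5. Part of this agreement was fixed in advance. Leaving out probe sets that can bind several transcripts changed only Notch3 among the members. Averaging could not change Dll1 or Dll3, with a single set each, and median centring shifts every gene equally.

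**Figure D4:**
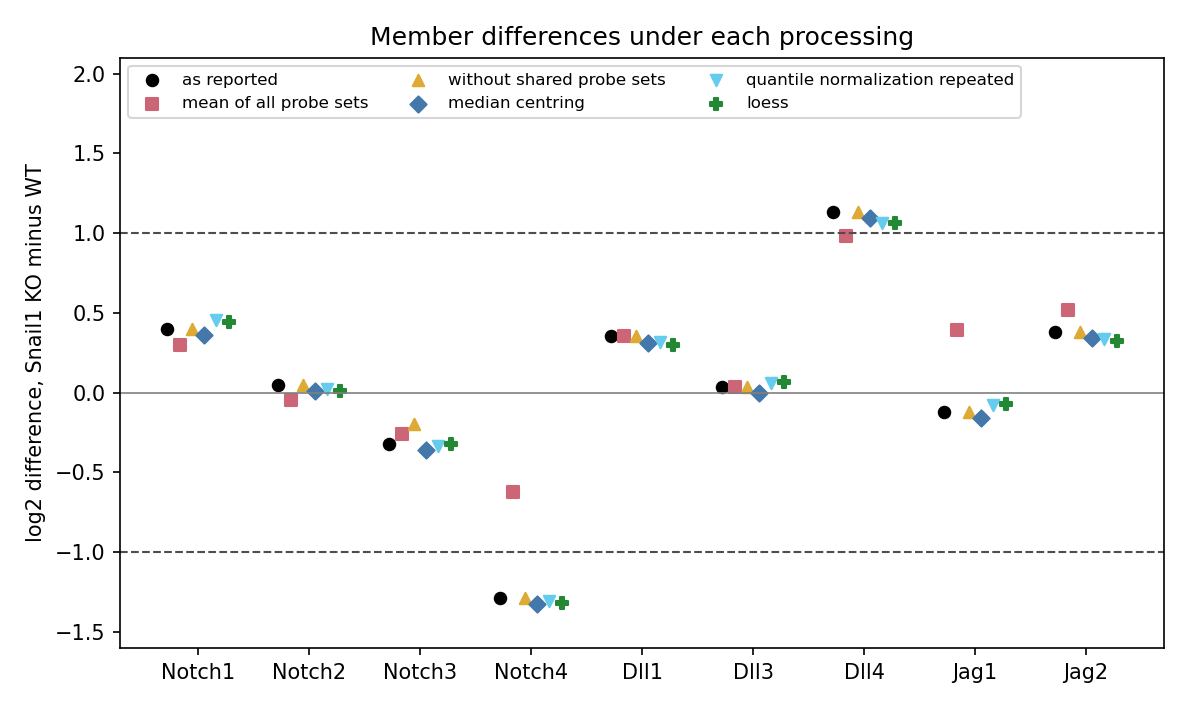
Log2 difference of each member under the reported processing and 5 alternatives, with 1 symbol per setting and dashed lines at 2-fold. Notch4 and Dll4 keep their sign under every setting and come inside 2-fold only with the mean of all probe sets, and Jag1 and Notch2 change sign there. Dll3, near zero, changes sign under median centring.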

How the data were processed

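The authors deposited 1 log2 value per probe set and array, which the submitters' processing notes credit to affy and RMA without a version. RMA corrects background, quantile-normalizes and summarises probes, so a change of total mRNA cannot be seen and differences of dim sets are compressed. No detection calls were used, so signal over background is unknown, and the number of arrays limits the precision. Trizol was used for RNA extraction and 250 ng were amplified, per the labels' protocols.

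Of 45101 probe sets, 64 were controls, and the platform annotation gave a single symbol to 34945, several to 932 and none to 9160, the last groups being left out. All 9 member symbols were the same in RefSeq. Differences were computed in Python 3.11.15 with pandas 2.3.3, and the loess alternative with statsmodels 0.14.6 (span 0.3). Genes were counted at 2-fold, with no test, because each group is 1 array. The named genes were the members, Snai1, the pathway genes past 2-fold and up to 2 of each role with the largest difference, the markers, and the 3 genes nearest to the members with the extreme differences. Rbpj, Maml1, Hes1, Hes5, Nrarp, Hey2 and Heyl fall outside that rule and were picked with their values known. The members and lists were chosen with earlier results of these data known, and the search for any E-box was added after the data had been seen. Alternatives were the mean of all probe sets, no probe sets that can bind several transcripts, 3 scalings, other level filters and other size thresholds.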

Additional observations from a re-analysis of the deposited data

How the results depend on the processing

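No paired analysis was possible because each group is 1 array, and for the same reason no array could be left out. With probe sets averaged per gene, 0 members were 2-fold higher and 0 lower, because the other Dll4 and Notch4 sets differed less. The other Notch4 sets were near or below the level, but the other Dll4 set was nearly as bright as the first, with means of 6.94 and 6.99. The median of the members was then 0.33, and 0 other pathway genes and 77 of 12191 analysed genes were 2-fold higher. Notch4 differed by -0.62 and Jag1 by 0.40. Without probe sets that can bind several transcripts, which removes the bright Dtx1 set with its suffix _a_at, 0 other pathway genes were 2-fold higher. The median of the members was 0.051 with no level filter, which adds Dll3, and 0.35 with the filter at the 60th percentile, which removes Notch3. At 1.5-fold, 4 of the 44 other pathway genes were higher and 1 lower, beside 652 higher and 783 lower of all 12874 analysed genes. At 3-fold, 0 members in either direction, 0 other pathway genes higher, and 23 higher and 90 lower of all genes remained by construction. Of 113 alternative values, 94 kept within the limits set for them (1.5 times for a count, 0.1 for a median, the yardstick of 0.32 for a member), 19 moved and 0 of the values past 2-fold changed sign. Some of the 94 could not move, such as Dll1 with the mean of its single probe set. Other scalings moved the median of all analysed genes from -0.01 to between -0.05 and -0.02. Notch3, Dll3 and the dimmer Notch4 sets are limited by their low signal.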
